A study of Homo sapiens with 15 samples.

Results

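The genes described here are 10 components of the cell death pathway started by TRAIL and by FAS ligand. They comprise the death receptors TNFRSF10A (DR4), TNFRSF10B (DR5), FAS and TNFRSF1A (TNFR1), the decoy receptors TNFRSF10C and TNFRSF10D, the adaptors FADD and TRADD, the initiator caspase CASP8 and its inhibitor CFLAR (c-FLIP). They were listed by name, with earlier results of these data known, and are 10 of the 60670 genes in the count table.

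RNA was sequenced from HT-1080, a human fibrosarcoma line, in 5 groups of 3 libraries that the labels name biological replicates. Cycling cells received only the vehicle DMSO and carried the 6 h label. In the senescent groups a dominant negative TRF2, a mutant of a protein that caps telomeres, had been expressed for 6 days before the cells received DMSO for 6 h, 1 uM GNF-7 for 6 h, DMSO for 24 h or 1 uM GNF-7 for 24 h. GNF-7 is a tyrosine kinase inhibitor, and the study's title ties it to the kinase GCN2, which starts the integrated stress response. Every group was kept in tet-free serum at 5% oxygen. Whether the cycling cells carried the TRF2 construct, whether the line was 1 clone, and whether replicates were separate inductions are not given in the sources used here. If replicates shared an induction, p-values measure only the spread between these libraries. Cycling cells treated with GNF-7 were not analysed here.

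Death receptors are cell surface proteins of the TNF receptor superfamily that carry a death domain inside the cell. When TRAIL binds TNFRSF10A or TNFRSF10B, or FAS ligand binds FAS, the receptors cluster and recruit FADD, which in turn gathers CASP8 so that it activates itself. CFLAR, a relative of CASP8 without a working protease site, enters the same complex and limits that step. The decoy receptors bind TRAIL without passing on the full signal. TNFRSF1A binds TNF and recruits TRADD first, which leads mainly to NF-kB signalling and, in a second complex, to FADD and CASP8. CASP8 activates downstream caspases directly and cuts BID, which carries the signal to mitochondria. TNFRSF10B is a known target of DDIT3 (CHOP), the stress response factor that acts downstream of GCN2 and ATF4.

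Library totals lay between 25991007 and 32323393 counts, and 18563 genes passed the filter on low counts. Mitochondrial genes took a share of the counts that differed between groups, from 3.75 to 5.01% in cycling cells, 11.2 to 12.4% in senescent vehicle cells at 6 h, 13.2 to 15.3% with GNF-7 at 6 h, 15.1 to 18.7% in vehicle at 24 h and 22.6 to 24.1% with GNF-7 at 24 h. Its part in the results below was not tested beyond a fit without these genes, in which each of the 8 members that still had a value kept its call in each comparison. Markers of a mesenchymal line were read as a sum over the 7 listed. It was 7993 to 8230 CPM (each count scaled by the size of its library) in cycling cells. In senescent vehicle cells it was 9028 to 9768 CPM at 6 h and 9209 to 10252 CPM at 24 h. With GNF-7 it was 7845 to 8579 CPM at 6 h and 5715 to 5976 CPM at 24 h. Of the 7, VIM had group means of 674 to 865 CPM per kilobase of exon, and S100A4 only 0.421 to 2.68. With GNF-7 at 24 h, 2 of the 7 were called higher and 5 lower, where 58.9% of all genes tested were called. The 8 markers of epithelial, leukocyte, endothelial and muscle cells summed to between 0.426 and 1.39 CPM in any library, with a single gene at most at 32 counts.

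Promoter sequence was looked up for the genes because NF-kB and the stress response factors are known regulators of this pathway. RefSeq windows on GRCh38.p14, from 250 bases before to 50 bases after an annotated start, were matched for 37 of the 50 genes listed here, and among the members for FAS, TNFRSF1A, FADD, CASP8 and CFLAR. The NF-kB consensus, searched on both strands, occurred in the windows of FAS and CFLAR among these members. It was in 8 of 65 windows of the listed genes (12.3%) and in 3956 of all 35116 windows (11.3%). The letters TGATGNAA, also searched on both strands, mark the composite site of ATF4 and DDIT3 and occurred in 0 of the 65 windows, against 1270 of all windows (3.62%). The absence says only that these letters are not in these windows. TNFRSF10B had no matched window, so the search did not cover it. Stretches of 30 bases are printed for the members with a match and for BIRC3 and TNFAIP3, known NF-kB target genes whose levels stand beside theirs below; all are on the plus strand and the capitals mark the match.
FAS, chr10:88991264-88991293: ggtcgctggaGGGGGACCCCggttggagag
CFLAR, chr2:201118609-201118638: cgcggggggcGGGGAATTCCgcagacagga
BIRC3, chr11:102317275-102317304: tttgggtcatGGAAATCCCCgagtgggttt
BIRC3, chr11:102317339-102317368: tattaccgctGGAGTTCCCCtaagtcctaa
TNFAIP3, chr6:137867182-137867211: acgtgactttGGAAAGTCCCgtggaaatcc
TNFAIP3, chr6:137867194-137867223: aaagtcccgtGGAAATCCCCgggcctacaa
The match begins at position -157 relative to the start site in FAS and at -97 in CFLAR, at -199 and -135 in BIRC3, and at -67 and -55 in TNFAIP3, where both stretches overlap. The FAS stretch meets the consensus when read on either strand, and the others meet it on 1 strand. A match is a description of the sequence and was not tested as a site.

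The members were expressed at very different levels. On the scale of mean CPM per kilobase of exon, TNFRSF10B was at 172 over the 15 libraries, rank 139 of the 18287 tested genes that have a length (percentile 99.2). TNFRSF1A followed at 45.3 CPM per kilobase (rank 790), then FAS at 26.0 (rank 1540) and FADD at 22.4 (rank 1864). TRADD stood at 5.67 (rank 6628) and CASP8 at 4.21 CPM per kilobase (rank 7848). CFLAR was at 1.13 (rank 12188), below CASP8 on this scale.

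At the other end, TNFRSF10C was at 0.638 CPM per kilobase (rank 13743) and TNFRSF10A at 0.0519 (rank 17926). TNFRSF10D did not pass the filter on low counts and had 0 to 8 counts per library. TNFRSF10B was thus the only TRAIL receptor gene with more than a few CPM in these libraries, and TNFRSF10D was near the floor, while TNFRSF10C lay above 24.8% of the genes ranked. The order of CASP8 depended on the length used. With its principal transcript of 1.629 kb in place of the exon union of 7.243 kb, its group means lay between 16.3 and 20.1 CPM per kilobase, above TRADD (5.24 to 8.68). CFLAR stayed low on either length, with group means of 1.04 to 1.20 CPM per kilobase over its exon union of 22.529 kb and 1.60 to 1.84 over its principal transcript of 14.672 kb. Both CFLAR lengths are long, the principal transcript being the longest of its kind. Before division by length the means over the 15 libraries were close, 25.5 CPM for CFLAR and 30.5 CPM for CASP8. The place of CFLAR below CASP8 thus rests on the lengths used.

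**Figure D1:**
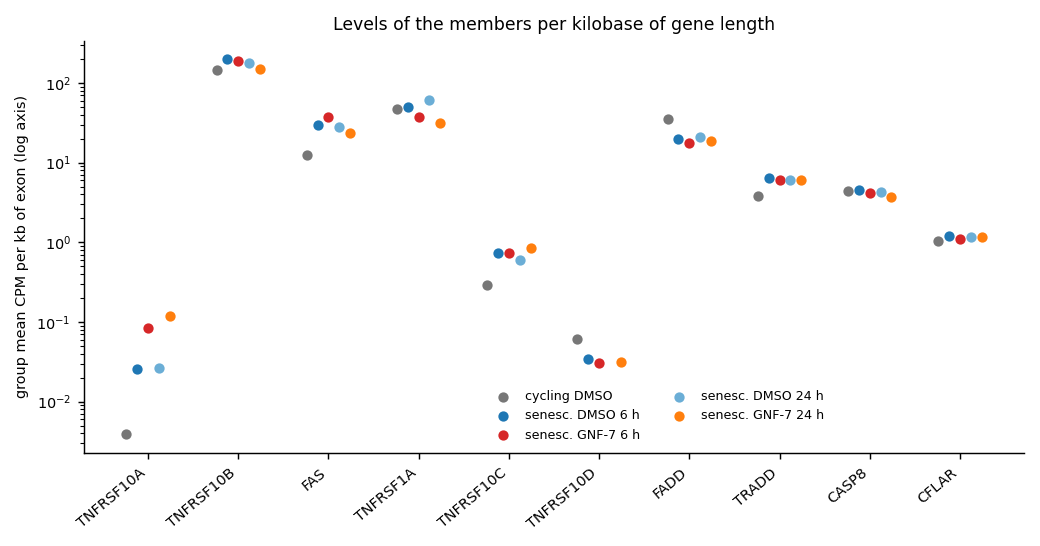
Group mean levels of the 10 members in CPM per kilobase of exon, on a log axis, with 1 point per group. TNFRSF10B lies near 172 and TNFRSF10A and TNFRSF10D lie below 0.2 in each group; TNFRSF10D in vehicle at 24 h is 0 and cannot be drawn on this axis.

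Senescent cells were compared with cycling cells, both in vehicle with the 6 h label. Among the 9 members tested, 6 were higher (TNFRSF10B, FAS, TNFRSF1A, TNFRSF10C, TRADD and CFLAR), 1 was lower (FADD) and 2 were not called (TNFRSF10A and CASP8), by the edgeR quasi-likelihood test at an adjusted p under 0.05. Of all genes tested, 70% were called in this comparison, 35.6% higher and 34.4% lower. A count of 7 of 9 is near that background, and only the direction and size of each gene are described here. The median log2 fold change of the members was 0.42, against 0.06 over all genes tested. In bulk RNA, fewer cells of a type and less RNA per cell cannot be told apart.

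FAS, the receptor for FAS ligand, rose most among the well measured members. Its 3 cycling libraries held 50.4, 55.3 and 51.8 CPM, and the senescent vehicle libraries at 6 h held 124, 121 and 129.8 CPM. Each senescent library was above each cycling one. The group means were 52.5 ± 2.54 and 125 ± 4.35 CPM (SD, n = 3), a 2.38-fold difference (log2 fold change 1.25, SE 0.046, edgeR adjusted p 1.26e-33). FAS (GRCh38 chromosome 10, 88990582 to 89015785, plus strand) shares 380 exon bases with ACTA2 on the other strand, and the strand setting of the counting is not given in the sources used here. ACTA2 was at 19.4 to 21.6 CPM in cycling and 64.0 to 64.9 CPM in the senescent vehicle group at 6 h, so its part in the FAS values was not tested.

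TNFRSF10B, the main TRAIL receptor in these cells by level, rose less. It was at 749.7, 759 and 768 CPM in cycling cells and at 1037, 981 and 1029.9 CPM in the senescent vehicle group at 6 h. Each senescent library was above each cycling one (group means 759 ± 8.98 against 1016 ± 30.9 CPM). The difference was 1.34-fold (log2 fold change 0.42, SE 0.033, edgeR adjusted p 1.14e-17). It has 67 exon bases in common with RHOBTB2 on the other strand, which was at 23.2 to 44.8 CPM in these libraries.

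TNFRSF1A, the main receptor for TNF, was nearly level between the groups. It was at 189, 185 and 191 CPM in cycling cells and at 210.5, 193 and 201 CPM in senescent vehicle cells. The lowest senescent library lay just above the highest cycling one (log2 fold change 0.10, SE 0.039, edgeR adjusted p 0.0232). The call was lost on leaving out any of 4 libraries, namely cycling replicate 1 (log2 fold change 0.10), cycling replicate 2 (0.08), senescent vehicle replicate 1 (0.06) and senescent vehicle replicate 3 (0.10), while total count scaling gave 0.23 and a stricter filter, which kept genes averaging 5 CPM or more (the 5 CPM filter), gave 0.25. The medians of all genes tested under these 2 settings were 0.19 and -0.0005, against 0.06 in the fit reported.

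The decoy receptor TNFRSF10C was 2.45-fold higher in senescent cells on a very low base, with 0.483, 0.448 and 0.718 CPM in cycling cells and 1.56, 0.979 and 1.56 CPM in the senescent vehicle group at 6 h. The libraries did not overlap (log2 fold change 1.29, SE 0.325, edgeR adjusted p 0.000384). The gene shares 485 exon bases with AC107959.4 on the same strand, which at 6.61 to 7.80 CPM in cycling cells was above TNFRSF10C itself. How reads on these shared bases were counted is not given in the sources used here, and their part in the TNFRSF10C values was not tested.

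TNFRSF10A, the other full TRAIL receptor, had 0, 1 and 0 counts in cycling cells and 4, 3 and 0 counts in senescent vehicle cells at 6 h. At this depth a difference between the groups was not detectable (log2 fold change 2.34, SE 1.44, edgeR adjusted p 0.143). The fitted value rests on a single count in cycling cells: it was 1.73 to 4.26 when 1 library was left out, highest without cycling replicate 2, and 1.38 with limma voom, and it did not pass in any of the 12 alternatives that gave a value (adjusted p 0.0732 to 0.374). The decoy TNFRSF10D had 8, 2 and 8 counts in cycling and 7, 2 and 2 counts in senescent vehicle cells, and was not tested.

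The adaptors went opposite ways. FADD, which links receptors to CASP8, was at 65.9, 63.9 and 62.6 CPM in cycling cells and at 36.8, 36.6 and 34.9 CPM in senescent vehicle cells, with a wide gap between the groups. It was lower by 43.6% (log2 fold change -0.83, SE 0.055, edgeR adjusted p 6.91e-21), the only member to fall. TRADD, the adaptor of TNFRSF1A, was at 10.8, 8.74 and 9.92 CPM in cycling and 17.3, 15.6 and 16.0 CPM in senescent vehicle cells, again without overlap (log2 fold change 0.73, SE 0.093, edgeR adjusted p 3.45e-10). FADD shares 1011 exon bases with AP000879.1, which was at most at 0.377 CPM in any library. TRADD shares 126 exon bases with FBXL8 on the other strand, which also differed between these groups (5.06 to 5.99 against 8.77 to 10.1 CPM); the part of FBXL8 in the TRADD values was not tested.

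CASP8 and its inhibitor CFLAR differed little. CASP8 was at 31.2, 32.7 and 30.5 CPM in cycling cells and 34.0, 33.7 and 30.6 CPM in senescent vehicle cells, with overlap, and did not pass the test (log2 fold change 0.06, edgeR adjusted p 0.406). With total count scaling it passed at 0.19, and with the 5 CPM filter at 0.21. The medians of all genes tested under these settings were 0.19 and -0.0005. CFLAR was at 22.7, 24.5 and 23.4 CPM in cycling and 25.9, 26.3 and 28.8 CPM in senescent vehicle cells. Its libraries did not overlap (log2 fold change 0.20, SE 0.069, edgeR adjusted p 0.00994). The CFLAR call was lost without cycling replicate 1 (0.17, edgeR adjusted p 0.0516) and without senescent vehicle replicate 3 (0.14, edgeR adjusted p 0.0917), and the value rose to 0.33 with total count scaling and 0.35 with the 5 CPM filter. CFLAR shares 1488 exon bases with the pseudogene IMPDH1P10 and 777 with CFLAR-AS1, both on the other strand and at most at 5.30 and 2.87 CPM in any library.

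**Figure D2:**
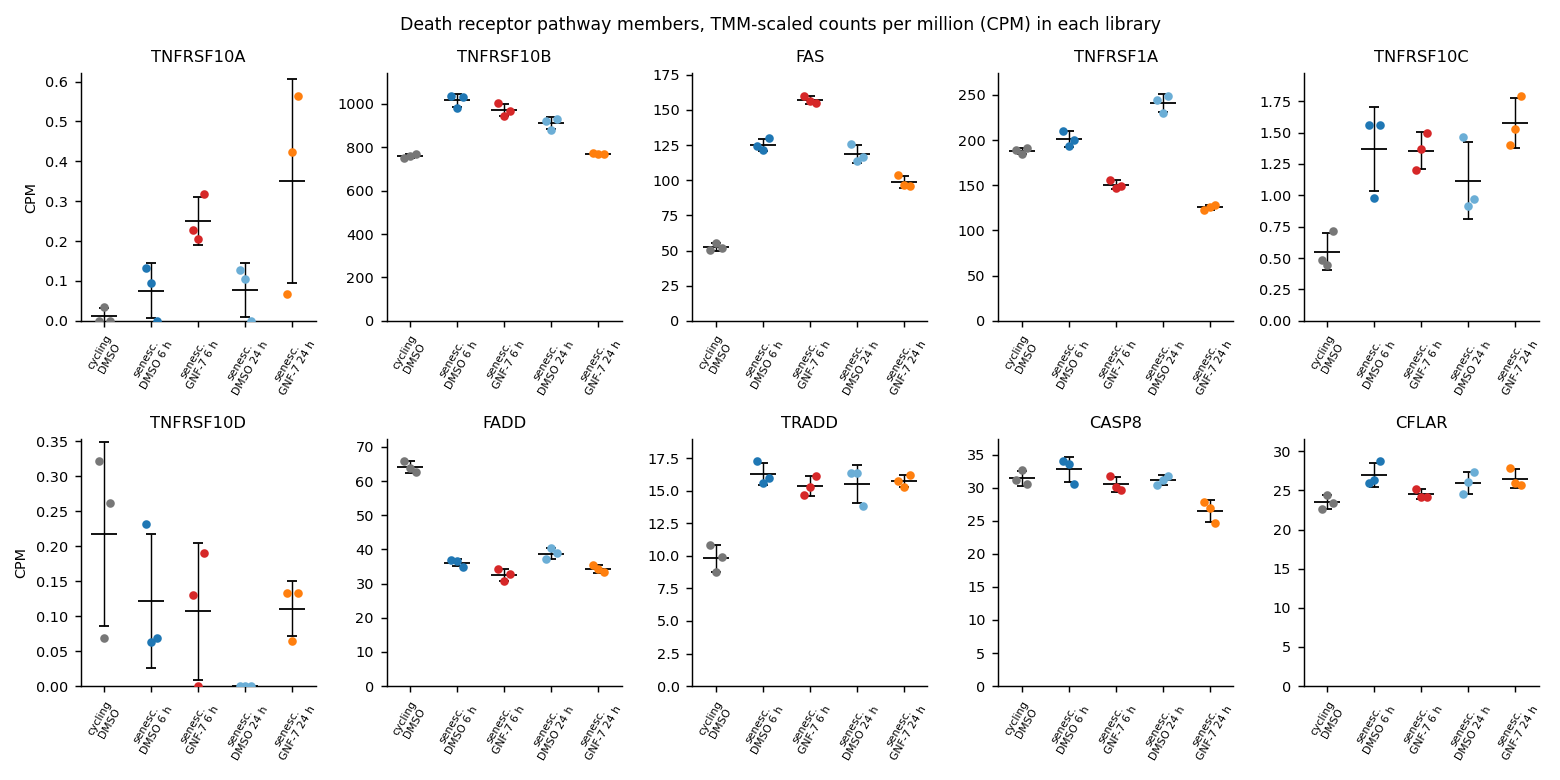
CPM of each member in each library (points), with the group mean and SD (lines), for the 5 groups; each panel has its own axis from 0. FAS stands at 50.4 to 55.3 in cycling cells and above 96 in each senescent library, FADD is highest in cycling cells, and TNFRSF1A is lowest with GNF-7 at both times.

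GNF-7 was then compared with vehicle in senescent cells at 6 h. Of the 9 members tested, FAS was higher, TNFRSF1A and FADD were lower and 6 were not called, where 39.3% of all genes tested were called (17.9% higher, 21.4% lower). The share of members called, 3 of 9, was near that background. The median log2 fold change was -0.08 for the members and 0.01 over all genes tested.

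FAS rose further at 6 h. The GNF-7 libraries held 160.1, 156 and 155 CPM, each above the highest vehicle library (129.8 CPM). Its log2 fold change was 0.33 (SE 0.043, edgeR adjusted p 2.48e-09), from 125 to 157 ± 2.74 CPM, the highest of its 5 group means. ACTA2, the gene on its other strand, was at 76.2 to 83.8 CPM with GNF-7 at 6 h and also did not overlap with vehicle.

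TNFRSF1A fell by 25.1%. Its GNF-7 libraries at 6 h held 156, 147 and 149 CPM, each below the 3 vehicle libraries and below the 3 cycling ones (log2 fold change -0.42, SE 0.039, edgeR adjusted p 6.25e-14). FADD was at 34.2, 30.7 and 32.7 CPM, just below vehicle without overlap (log2 fold change -0.15, SE 0.058, edgeR adjusted p 0.0324). The FADD call was lost in 7 of 15 alternatives: with total count scaling (-0.14), with the 5 CPM filter (-0.10), when fitting only the groups compared (-0.14), and without vehicle replicate 1 (-0.14), vehicle replicate 2 (-0.14), GNF-7 replicate 2 (-0.10) or GNF-7 replicate 3 (-0.15).

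TNFRSF10B was at 1002, 946 and 967 CPM with GNF-7 at 6 h and overlapped with vehicle (log2 fold change -0.06, SE 0.033, edgeR adjusted p 0.121). It passed the test with limma voom (-0.06, adjusted p 0.0495) and, with edgeR, without vehicle replicate 2 (-0.09, adjusted p 0.0478), in the lower direction. TNFRSF10A held 7, 6 and 10 counts against 4, 3 and 0 in vehicle. The counts did not overlap, and the difference did not pass the test (log2 fold change 1.65, SE 0.849, edgeR adjusted p 0.119). CASP8 (-0.10, edgeR adjusted p 0.200), CFLAR (-0.14, edgeR adjusted p 0.103), TRADD (-0.08, edgeR adjusted p 0.497) and TNFRSF10C (-0.01, edgeR adjusted p 0.990) did not pass it either.

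At 24 h more members were lower with GNF-7 than in vehicle. TNFRSF10B, FAS, TNFRSF1A, FADD and CASP8 were lower, and TNFRSF10C, TRADD and CFLAR were not called. TNFRSF10A was called higher, but it had passed the low-count filter only through libraries with GNF-7. The 6 of 9 called stand beside 58.9% of all genes called (29.3% higher, 29.7% lower), again near the background. The median log2 fold change of the members was -0.18, against 0.04 over all genes tested. With the 5 CPM filter 3 members were called, all lower; that filter left TNFRSF10A and TNFRSF10C untested and ended the calls of FADD (-0.08) and CASP8 (-0.13).

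TNFRSF1A had the largest fall of the members at 24 h. It was at 244, 230.3 and 249.1 CPM in vehicle and 123, 126 and 128 CPM with GNF-7, a drop of 47.9%, and the GNF-7 libraries were below those of every other group (241 ± 9.73 against 126 ± 2.90 CPM). The log2 fold change was -0.94 (SE 0.039, edgeR adjusted p 2.86e-30).

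FAS was lower at 24 h. Vehicle libraries held 126, 114 and 117 CPM and GNF-7 libraries 104, 96.9 and 96.2 CPM, so the groups did not overlap, and the GNF-7 libraries were still above the cycling ones. Its log2 fold change was -0.26 (SE 0.044, edgeR adjusted p 4.21e-07), and -0.16 with the 5 CPM filter. ACTA2 moved the other way, from 73.9 to 79.1 CPM in vehicle to 108 to 114 CPM with GNF-7.

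TNFRSF10B was at 921, 880.3 and 932 CPM in vehicle and 773, 771 and 769.5 CPM with GNF-7 at 24 h. The GNF-7 libraries were close together and lay only just above the highest cycling library (768 CPM). The receptor was lower by 15.4% (log2 fold change -0.24, SE 0.033, edgeR adjusted p 5.39e-09), and -0.14 with the 5 CPM filter.

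CASP8 was at 30.4, 31.2 and 31.8 CPM in vehicle and 27.9, 27.0 and 24.7 CPM with GNF-7. These were the 3 lowest CASP8 values of the 15 libraries (log2 fold change -0.23, SE 0.065, edgeR adjusted p 0.00164). FADD was at 37.2, 40.3 and 38.9 CPM in vehicle and 35.3, 34.2 and 33.3 CPM with GNF-7 (log2 fold change -0.18, SE 0.057, edgeR adjusted p 0.00587), without overlap.

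CFLAR was not called at 24 h. It was at 24.6, 26.1 and 27.3 CPM in vehicle and 27.9, 26.0 and 25.7 CPM with GNF-7, with overlap (log2 fold change 0.03, edgeR adjusted p 0.718). The number of CFLAR counts per CASP8 count, a ratio chosen after its values were seen and given with no test, was 0.728 to 0.769 in cycling cells, 0.762, 0.780 and 0.939 in senescent vehicle cells at 6 h and 0.794 to 0.814 with GNF-7 at 6 h. At 24 h it was 0.809 to 0.859 in vehicle and 1.00, 0.963 and 1.04 with GNF-7, so the groups at 24 h did not overlap and the ratio was highest with GNF-7 at 24 h.

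TNFRSF10A had 4, 3 and 0 counts in vehicle and 2, 13 and 17 counts with GNF-7 at 24 h, and the groups overlapped. It passed the test (log2 fold change 2.06, SE 0.817, edgeR adjusted p 0.0262). It had passed the low-count filter only through libraries with GNF-7, at 10 counts at 6 h and 13 and 17 counts at 24 h. Its test thus depended on the groups in which it is high, and the call is not read as a result. Of the 10 alternatives that gave a value, 3 lost the call. Without a filter it no longer passed (edgeR adjusted p 0.0716), nor did it with limma voom (adjusted p 0.0566) or without vehicle replicate 3 (log2 fold change 1.55, edgeR adjusted p 0.140). TNFRSF10D had 0, 0 and 0 counts in vehicle, where up to 3 counts per library are allowed by a count of 0, and 4, 2 and 4 counts with GNF-7. TNFRSF10C was at 1.47, 0.917 and 0.967 CPM in vehicle and 1.40, 1.53 and 1.79 CPM with GNF-7, with overlap (log2 fold change 0.48, SE 0.289, edgeR adjusted p 0.148). TRADD was at 16.3, 16.4 and 13.9 CPM in vehicle and 15.8, 15.3 and 16.2 CPM with GNF-7, also with overlap (0.02, edgeR adjusted p 0.866).

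**Figure D3:**
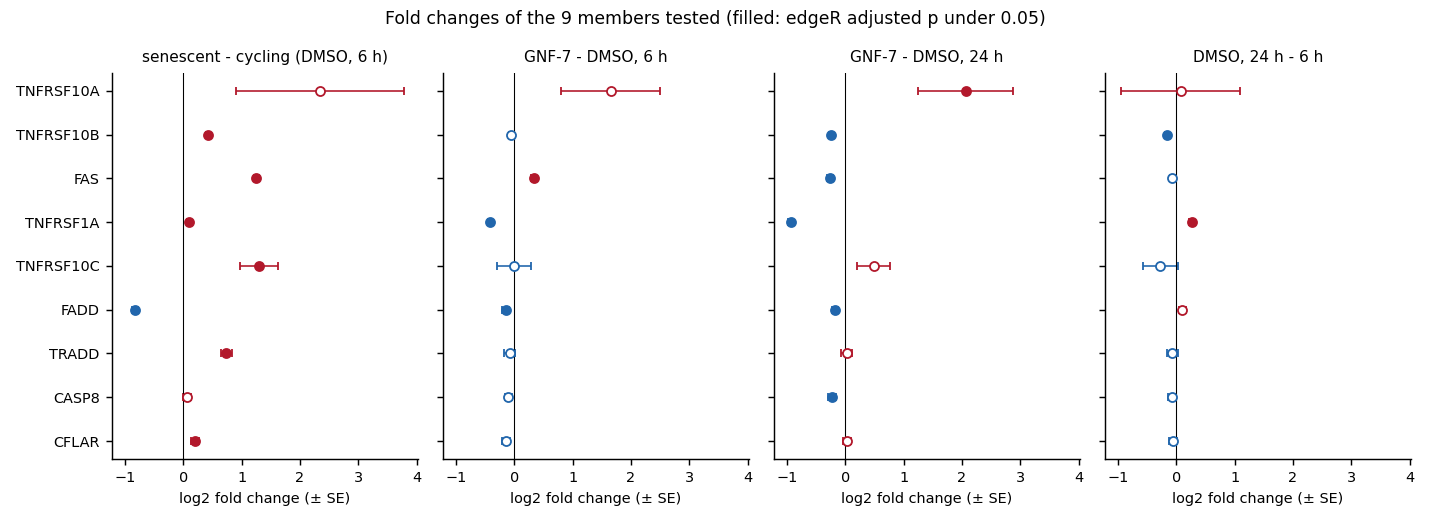
Log2 fold changes with SE of the 9 members tested in 4 comparisons, filled where the edgeR adjusted p was under 0.05. FAS is at 1.25 in senescence, 0.33 with GNF-7 at 6 h and -0.26 at 24 h, and TNFRSF1A is at -0.42 and -0.94 with GNF-7; the wide bars of TNFRSF10A come from 0 to 17 counts per library.

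For 3 members the GNF-7 effect at 24 h was lower than at 6 h by a test of the difference itself. Of all genes tested, 30.8% were called for this difference (12.8% higher, 18% lower), so 3 of 9 was near the background. For FAS the difference of the log2 fold changes was -0.59 (SE 0.061, edgeR adjusted p 2.99e-12), since the gene was above vehicle at 6 h and below it at 24 h. It was -0.52 for TNFRSF1A (SE 0.055, edgeR adjusted p 7.49e-12) and -0.18 for TNFRSF10B (SE 0.047, edgeR adjusted p 0.00229). The other 6 members tested did not pass: TNFRSF10A, TNFRSF10C, FADD, TRADD, CASP8 and CFLAR lay between -0.13 and 0.49.

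Vehicle alone also changed with time in senescent cells, which bears on the 24 h comparison. Between 6 h and 24 h in DMSO, TNFRSF1A rose (log2 fold change 0.26, SE 0.039, edgeR adjusted p 4.29e-07) and TNFRSF10B fell by 0.16 on the log2 scale (SE 0.033, edgeR adjusted p 0.000277), 2 of 9 members where 18.5% of all genes were called (9.26% higher, 9.29% lower). Neither gene's libraries overlapped between the times. With total count scaling 4 members were called, TNFRSF1A higher (0.15) and TNFRSF10B (-0.27), FAS (-0.18) and CASP8 (-0.19) lower, and the median of all genes moved from 0.01 to -0.10. Relative to that median all 4 kept their direction. Under this scaling 627 genes were higher and 4392 lower, against 1719 and 1724 with TMM.

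Placed in order of group means, the members fell into different patterns. FADD was highest in cycling cells, by a gap without overlap. Next came vehicle at 24 h, vehicle at 6 h, GNF-7 at 24 h and GNF-7 at 6 h. The senescent vehicle groups did not overlap with each other. GNF-7 at 24 h overlapped both with vehicle at 6 h and with GNF-7 at 6 h. TNFRSF1A ran from vehicle at 24 h through vehicle at 6 h, cycling cells and GNF-7 at 6 h to GNF-7 at 24 h, and no neighbours in that order overlapped. For TNFRSF10B the order was vehicle at 6 h, GNF-7 at 6 h, vehicle at 24 h, GNF-7 at 24 h and cycling cells, with overlap only between the first pair. FAS ran from GNF-7 at 6 h through vehicle at 6 h, vehicle at 24 h and GNF-7 at 24 h to cycling cells, with overlap only between the vehicle groups. TRADD and TNFRSF10C were lowest in cycling cells, apart from the senescent group next to them, while their 4 senescent groups overlapped from neighbour to neighbour. CASP8 stood apart only in its lowest group, GNF-7 at 24 h, and no neighbours in the CFLAR order were apart.

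The 5 genes whose log2 CPM followed TNFRSF10B most closely over the 15 libraries, among 11216 genes with a mean of at least 5 CPM, were GPR107 (Pearson r 0.992), DNAJC16 (0.988), IRAK2 (0.986), IDS (0.979) and CD82 (0.974). The libraries share their 5 groups, so these values describe likeness across groups.

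The regulators known to act on these receptors were measured beside them. DDIT3 was at 11.4, 10.0 and 9.50 CPM in cycling cells and 23.2, 23.8 and 23.2 CPM in the senescent vehicle group at 6 h, and reached 152, 157 and 154 CPM with GNF-7 at 6 h. At 24 h it was at 25.1, 21.7 and 23.5 CPM in vehicle and 192, 188 and 191 CPM with GNF-7. The GNF-7 libraries were thus far above each other group at both times (log2 fold changes 2.72 and 3.02, edgeR adjusted p 1.85e-48 and 4.49e-51). ATF4, the factor upstream of DDIT3, was lower in senescent than in cycling cells (-0.84, edgeR adjusted p 2.07e-30) and higher with GNF-7 at 6 h (1.25, edgeR adjusted p 1.65e-38) and 24 h (1.67, edgeR adjusted p 1.65e-45). TNFRSF10B, a known DDIT3 target, was not called with GNF-7 at 6 h and was lower at 24 h in the same libraries. These are transcript levels and do not measure CHOP protein, and a link between DDIT3 and TNFRSF10B was not tested.

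**Figure D4:**
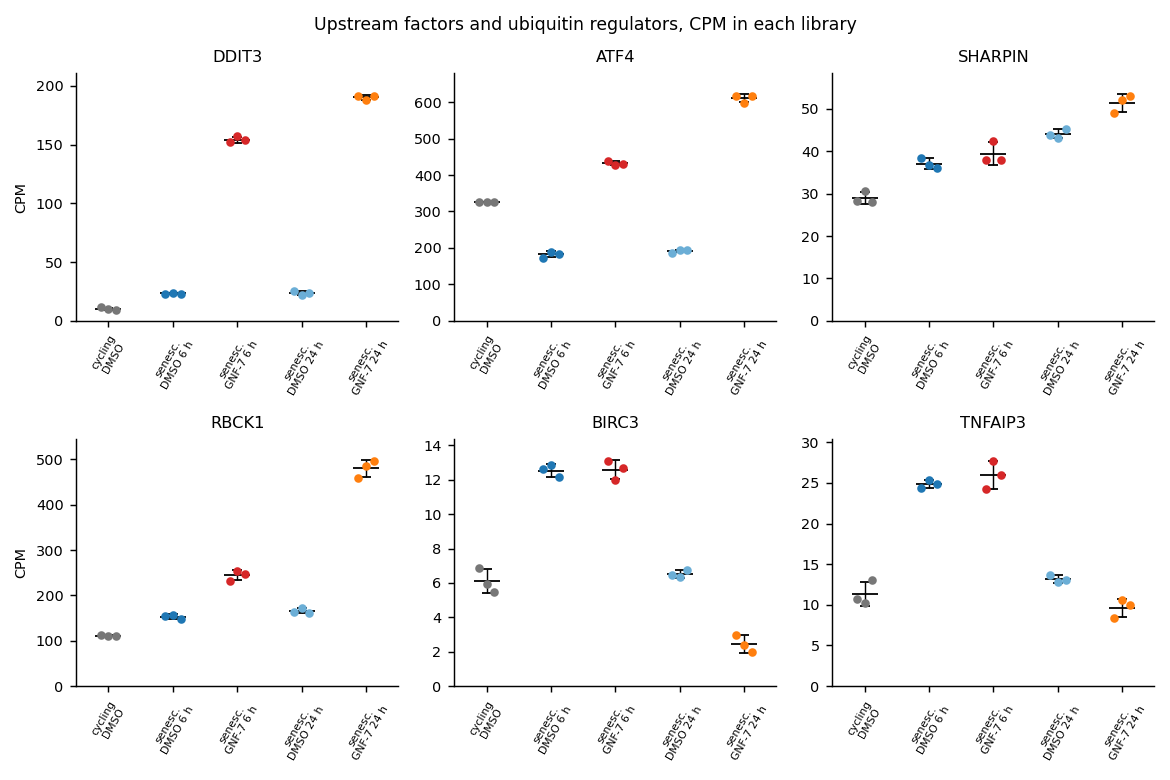
CPM in each library (points) with group mean and SD (lines) of the transcription factors DDIT3 and ATF4 and of the ubiquitin regulators SHARPIN, RBCK1, BIRC3 and TNFAIP3. DDIT3 and ATF4 are highest in the GNF-7 groups, RBCK1 and SHARPIN are highest with GNF-7 at 24 h, and BIRC3 and TNFAIP3 are high only in the senescent groups at 6 h.

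The rest of the pathway was taken as a list of 40 further genes, of which 35 were tested. In senescence 20 were higher and 11 lower, with GNF-7 at 6 h 8 were higher and 6 lower, and at 24 h 15 were higher and 15 lower. Of all genes tested, 70%, 39.3% and 58.9% were called in these comparisons, and the counts of each list below stand beside these same shares with no test. Their median log2 fold changes were 0.29, 0.02 and -0.10, against 0.06, 0.01 and 0.04 over all genes. Genes outside the naming rule appear below only to fill out such counts, and were named after their values were seen.

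The ligands of the TRAIL receptors, FAS and TNFRSF1A were low as transcripts. TNFSF10, which encodes TRAIL, had 3 to 26 counts per library, FASLG had 0 to 6 and TNF 0 to 3. Of the other ligands listed, LTA had 2 to 48 and TNFSF15 3 to 50 counts, and TNFSF12 (TWEAK), the ligand of TNFRSF12A, was higher, at 108 to 263 counts or 4.17 to 8.78 CPM. TNFSF10 was not called in any of the 3 comparisons (0.85, -1.14 and -0.91), but the lower value at 6 h passed the test with limma voom (-1.28), when fitting only the groups compared (-1.13) and without GNF-7 replicate 2 (-1.62). Of the 4 ligands tested, TNFSF15 and TNFSF12 were called higher in senescence, none was called at 6 h, and LTA was called higher and TNFSF15 lower at 24 h. Of the soluble decoys, TNFRSF11B was at the floor as well, with at most 1 count, and TNFRSF6B had 0 counts in each library. All 1141 exon bases of TNFRSF6B are shared with RTEL1-TNFRSF6B on the same strand. How reads on these bases were counted is not given in the sources used here, so its 0 counts do not show that the transcript was absent.

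Other receptors of the superfamily included large changes. NGFR, the neurotrophin receptor p75, fell in senescence from 91.2 to 98.7 CPM in cycling libraries to 21.4 to 23.9 CPM (log2 fold change -2.09, edgeR adjusted p 2.54e-38), and fell again with GNF-7 at 24 h (-0.81, edgeR adjusted p 9.35e-15). TNFRSF1B, the TNF receptor without a death domain, was lower in senescence (-1.60, edgeR adjusted p 3.90e-16). Its smaller difference at 24 h (-0.42, edgeR adjusted p 0.0298) lost its call in 6 of 15 alternatives: the 5 CPM filter (-0.32), limma voom (-0.40), only the groups compared (-0.42), and without vehicle replicate 1 (-0.29), vehicle replicate 3 (-0.38) or GNF-7 replicate 3 (-0.35). TNFRSF21 (DR6), a death receptor outside the TRAIL family, was at 211 to 243 CPM in vehicle and 64.7 to 69.0 CPM with GNF-7 at 24 h, a log2 fold change of -1.76 (edgeR adjusted p 1.78e-37), and was lower already at 6 h (-0.47, edgeR adjusted p 1.20e-13). All 5 receptors of this list were called at 24 h, where 58.9% of all genes were, with TNFRSF25 higher and TNFRSF12A, TNFRSF1B, NGFR and TNFRSF21 lower. Among the member receptors TNFRSF1A, FAS and TNFRSF10B were lower, TNFRSF10A was called higher on few counts and TNFRSF10C was not called.

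Among 9 partners of the receptor complex, 5 were higher in senescence (RIPK1, CASP10, PEA15, NOL3 and PTPN13) and 4 lower (TRAF2, DAXX, FAF1 and CASP8AP2), beside 70% of all genes called. With GNF-7 at 6 h CASP10, PEA15, NOL3 and PTPN13 were higher and TRAF2 and DAXX lower (39.3% of all genes called). At 24 h RIPK1 joined those higher and CASP8AP2 those lower (58.9% of all genes called). CASP10, the closest relative of CASP8, was higher in each of these comparisons (0.64, 0.60 and 0.53; edgeR adjusted p at most 8.47e-06), from 5.65 to 6.19 CPM in cycling cells to 12.6 to 14.5 CPM with GNF-7 at 24 h. CASP8 was not called higher in any of them in the fit reported. NOL3 (ARC), an inhibitor of the death-inducing complex, was higher in senescence (1.15, edgeR adjusted p 1.42e-24) and with GNF-7 at 24 h (0.60, edgeR adjusted p 1.25e-14). Its rise at 6 h (0.15, edgeR adjusted p 0.0268) was lost in 5 of 15 alternatives: without a filter (0.13), without vehicle replicate 1 (0.14) or 3 (0.12), and without GNF-7 replicate 2 (0.10) or 3 (0.16). PTPN13 (FAP-1), a phosphatase that binds FAS, was at 10.4 to 11.02 CPM in vehicle and 22.4 to 27.6 CPM with GNF-7 at 6 h (1.19, edgeR adjusted p 1.79e-17) and was also higher at 24 h (1.13, edgeR adjusted p 1.59e-16).

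Of BID, CASP6 and CASP9, which act downstream of CASP8 or beside it in the mitochondrial route, BID was lower and CASP9 higher in senescence. BID, the substrate that links CASP8 to mitochondria, was at -0.82 there and was lower again with GNF-7 at 6 h (-0.37) and 24 h (-0.71; edgeR adjusted p at most 5.11e-07 in each). CASP9, the caspase of the mitochondrial route, rose in senescence (0.89, edgeR adjusted p 5.25e-10) and with GNF-7 at 24 h (0.42, edgeR adjusted p 0.000427). CASP6 was not called in any of these comparisons (-0.08, -0.18 and -0.12).

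Of the inhibitors of apoptosis and their antagonists, 5 genes in all, BIRC2, BIRC3 and DIABLO were higher and XIAP lower in senescence. XIAP was the gene called at 6 h, and at 24 h XIAP and DIABLO were higher and BIRC2, BIRC3 and HTRA2 lower. BIRC3 (cIAP2), a known NF-kB target whose promoter stretches are printed above, was at 5.48 to 6.88 CPM in cycling and 12.1 to 12.9 CPM in the senescent vehicle group at 6 h (1.04, edgeR adjusted p 9.84e-12). It was not called with GNF-7 at 6 h (0.01), a direction that turned without a filter (-0.01). In vehicle it fell between 6 h and 24 h (-0.94, edgeR adjusted p 5.96e-09), and it was lower still with GNF-7 at 24 h, at 1.96 to 2.97 against 6.35 to 6.77 CPM (-1.42, edgeR adjusted p 2.25e-13). XIAP, an inhibitor of caspases, was lower in senescence (-0.15, edgeR adjusted p 0.0107). It was not called with total count scaling (-0.02), no filter (-0.14), the 5 CPM filter (-0.0025) and only the groups compared (-0.09). XIAP was higher with GNF-7 at 24 h (0.23, edgeR adjusted p 0.000222). At 6 h the XIAP call (0.16, edgeR adjusted p 0.0165) was lost without a filter (0.14) and without vehicle replicate 3 (0.14) or GNF-7 replicate 2 (0.14).

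In the necroptosis and ubiquitin list, RIPK3, the kinase needed for necroptosis, had 0 counts in each library. Of the 7 genes tested, 5 were higher (CYLD, TNFAIP3, SHARPIN, RBCK1 and RNF31) and 2 lower (MLKL and OTULIN) in senescence, beside 70% of all genes called. With GNF-7 RBCK1 was higher and CYLD lower at 6 h (39.3% of all genes called), and at 24 h SHARPIN, RBCK1 and RNF31 were higher and CYLD, TNFAIP3 and OTULIN lower (58.9% of all genes called). TNFAIP3 (A20), which removes ubiquitin from TNF receptor complexes, was at 10.3 to 13.0 CPM in cycling and 24.4 to 25.4 CPM in the senescent vehicle group at 6 h (1.13, edgeR adjusted p 5.60e-18), fell in vehicle by 24 h (-0.92, edgeR adjusted p 8.31e-13) and was lower with GNF-7 at 24 h (-0.45, edgeR adjusted p 3.69e-05). FAS (-0.07) and CFLAR (-0.06), the members whose windows also hold the NF-kB letters, were not called between the vehicle times. Of all genes tested, 18.5% were called there. The windows of LTA, TNFRSF25 and CYLD hold these letters too, and a link of the letters to the levels was not tested. RBCK1 (HOIL-1), a subunit of the linear ubiquitin ligase, was higher in senescence (0.47, edgeR adjusted p 3.31e-16) and with GNF-7 at 6 h (0.67, edgeR adjusted p 9.41e-23), and at 24 h rose from 162 to 173 CPM in vehicle to 459 to 496 CPM with GNF-7 (1.53, edgeR adjusted p 1.07e-41). The other subunits of that ligase, RNF31 and SHARPIN, were higher at 24 h, by 0.44 (edgeR adjusted p 0.0489, libraries overlapping) and 0.22 (edgeR adjusted p 0.000662).

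**Figure D5:**
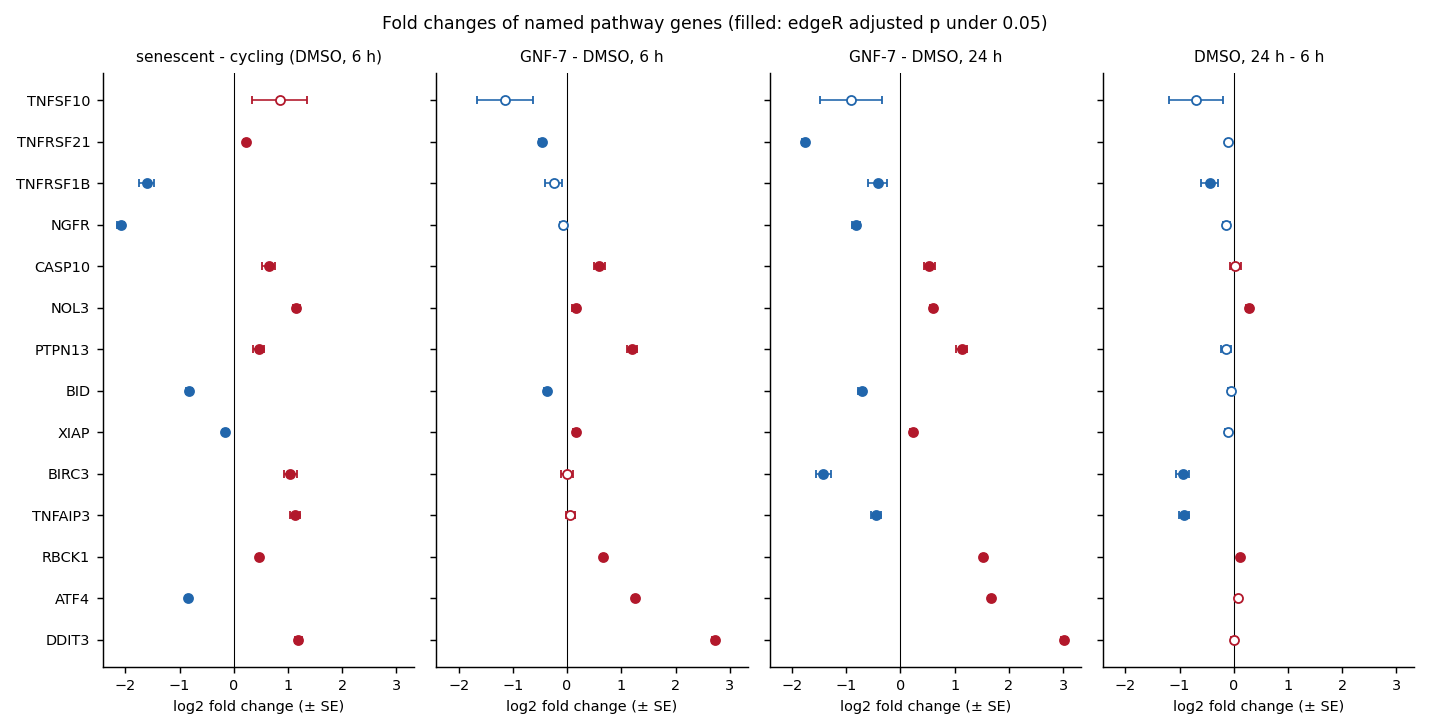
Log2 fold changes with SE of the 14 pathway genes of the naming rule that were tested, in senescence, with GNF-7 at 6 h and 24 h, and in vehicle over time, filled where the edgeR adjusted p was under 0.05. DDIT3 at 2.72 and 3.02 and PTPN13 at 1.19 and 1.13 stand out to the right with GNF-7, and TNFRSF21 at -1.76 and BIRC3 at -1.42 to the left at 24 h.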

How the data were processed

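RNA sequencing of 15 HT-1080 libraries was analysed. The authors deposited 1 table of raw, unnormalized counts by Ensembl identifier. The submitters' processing notes name bcl2fastq 2.20.0.422, STAR 2.7.9a, featureCounts 1.5.1 and GRCh38, and per the labels' protocols a stranded mRNA kit was used; the annotation and the strand setting of the counting are not given in the sources used here. Columns were matched to libraries by the library names in the labels. Of 60673 lines, 3 that hold 1 broken entry were left out, and 60400 of the 60670 genes kept (99.55%) had a symbol.

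Counts were tested with edgeR 4.0.16 (R 4.3.3; filterByExpr, TMM scaling, quasi-likelihood test with robust estimates) in 1 fit over all 15 libraries with a term per group and no replicate block, for 5 contrasts. Benjamini-Hochberg adjustment ran over the 18563 genes tested, with calls at an adjusted p under 0.05. The biological coefficient of variation was 4.64%. CPM scale each count by the TMM-scaled size of its library, and each SE is the log2 fold change over the square root of F. CPM per kilobase used exon unions of GENCODE release 29 (GRCh38), since the table analysed had no length column. A count of 0 allows up to 3 counts at the 95% level, for counting error only, since the reads carry no molecular identifiers.

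The members, the further lists and the rule for naming genes were chosen with earlier results of these data known. Some genes first listed are not reported here. Named with values are all members; listed genes with a mean of at least 1 CPM and a called change of at least 2-fold in senescence or with GNF-7; TNFSF10, FASLG, TNF, CASP10, BID, XIAP, ATF4 and DDIT3; and the 5 genes most like TNFRSF10B (log2 CPM with a prior count of 2). Alternatives were RLE size factors, total counts, leaving out mitochondrial genes, no filter, a 5 CPM filter on the mean, DESeq2 1.42.0, limma voom (limma 3.58.1), a replicate block, separate fits for the groups compared and leaving out each library. Pairs of replicates differed by more than sampling noise (chi-square per degree of freedom 3.02 to 12.7), and none was merged. The code was tested on simulated data.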

Additional observations from a re-analysis of the deposited data

Results flagged for a closer look

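For 3 members the effect of GNF-7 in senescent cells differed between 24 h and 6 h by the edgeR test of the difference itself. The difference of the log2 fold changes was -0.59 for FAS, from 0.33 at 6 h to -0.26 at 24 h (adjusted p 2.99e-12). It was -0.52 for TNFRSF1A, from -0.42 to -0.94 (adjusted p 7.49e-12), where vehicle itself was 0.26 higher at 24 h than at 6 h. TNFRSF10B had a difference of -0.18, from -0.06 to -0.24 (adjusted p 0.00229), with vehicle 0.16 lower at 24 h (log2 fold change -0.16).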

How the results depend on the processing

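Over 703 values of the members under alternatives, 654 kept their direction and their side of the threshold, 18 lost a call, 6 gained one and 25 changed sign; for the further pathway genes these numbers were 856, 28, 3 and 4 of 891. The number of members called was 3 with GNF-7 at 24 h under the 5 CPM filter (6 in the fit reported) and 4 for vehicle over time with total counts (2 in the fit reported). Leaving out 1 library at a time gave 5 to 7 members called in senescence, 2 to 3 with GNF-7 at 6 h, 5 to 6 at 24 h, 3 in each fit for the difference between times and 2 in each fit for vehicle over time. Replicate numbers are shared between groups but same-numbered libraries did not deviate together (correlations -0.03 to 0.06), so they were not treated as pairs; with the replicate block 7, 3, 6, 3 and 2 members were called, as without it.

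The values that changed sign were small or rested on few counts, and none was called. TNFRSF10A for the difference between times was -0.039 with voom and -0.19 to 0.94 over the leave-outs; for vehicle over time it was -0.032 with total counts and -0.46 to 0.67 over the leave-outs. TNFRSF10C with GNF-7 at 6 h was 0.0022 with RLE, 0.0065 with total counts, 0.0017 with DESeq2, 0.026 with voom, 0.0039 with the replicate block, 0.0064 when only the groups compared were fitted, and -0.20 to 0.10 over the leave-outs. FADD for the difference between times was 0.019 with the 5 CPM filter and -0.075 to 0.0055 over the leave-outs, and for vehicle over time -0.0079 with total counts. TRADD at 24 h was -0.0044 without a filter and -0.058 to 0.054 over the leave-outs, and for vehicle over time -0.11 to 0.0062. CFLAR at 24 h was -0.014 to 0.063 over the leave-outs. BIRC3 at 6 h was -0.014 without a filter and -0.026 to 0.051 over the leave-outs. The cause was not tested. With 0 to 17 counts per library, depth limits TNFRSF10A and TNFRSF10D, and the unknown strand setting limits FAS and TRADD beside their overlapping genes.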
